A study of Mus musculus with 12 samples.

Results

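The 9 brains homozygous for a high stepper allele of Rorb were compared with the 3 wild-type brains, so that all 12 libraries of the study entered. The wild-type group (WT) and the Rorbh1/h1 group (h1) were C57BL/6J mice, the Rorbh2/h2 group (h2) was B6(Cg)-Tyrc-2J/J, and the Rorbh4/h4 group (h4) was B6.129S7-Il1r1tm1Imx/J. Each group held 3 mice of 6 weeks, 1 whole brain and 1 library per mouse, and every cell of a mutant carries the allele. In h2 and h4 the Rorb allele and the strain, with its albino Tyr or Il1r1 knockout allele, cannot be told apart, because the WT mice were of another strain. The difference tested was the mean of the 3 mutant genotype means minus the WT mean. Calls rest on the quasi-likelihood test of edgeR with a threshold of 0.05 on the p adjusted by Benjamini and Hochberg, and a called gene is named shared here when its estimate had the same sign in h1, in h2 and in h4. Of 16493 genes tested, 179 were shared. Called or not, 47.5% of all genes tested had the same sign in each mutant. The sign rule is a description, since the 3 comparisons use the same WT libraries.

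Rorb encodes RORβ, an orphan nuclear receptor that binds DNA as a monomer, at the core AGGTCA preceded by an A/T-rich stretch. In the brain it marks cortical layer 4, sensory thalamic relay nuclei and circadian centres, and it is also made in the retina and in inhibitory neurons of the dorsal spinal cord, where its loss gives the high-stepping gait. Whole brain holds all of these regions except the retina and cord together with glia, vessels and attached coverings, so fewer cells of a type and less RNA per cell cannot be told apart. The kit used does not mark the strand, so reads of a gene and of an antisense partner cannot be separated.

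The libraries held 14513825 to 24694178 expected counts, which are estimated read pairs per gene. Levels are given as CPM, expected counts scaled to the library total, and changes as log2 fold changes. Markers of oligodendrocytes, astrocytes, microglia, vessels, choroid plexus, cortex, thalamus, striatum and cerebellum were present in every library. Of 13 pituitary and pineal genes, only Pomc passed the low-count filter, and it summed to 0.749 to 2.62 CPM per library. Xist reached 786 to 911 CPM in 7 libraries. The remaining 5 had 0.562 to 1.36 CPM of it and 95.5 to 104 CPM of Ddx3y, a Y-linked gene. All 3 WT libraries were Xist-high, against 1 of 3 in h1, 1 of 3 in h2 and 2 of 3 in h4. Of the 179 shared genes, 48 were called both with Xist as a covariate and in the Xist-high libraries alone, and for the genes named by rule the calls that failed are given with the genes.

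Rorb itself (ENSMUSG00000036192; GRCm38 chromosome 19, 18930605 to 19111196, minus strand) was not a shared gene. Its level was 18.5, 16.3 and 17.0 CPM in the WT brains. The h1 brains had 23.3, 33.4 and 22.8, the h2 brains 31.1, 31.1 and 22.5, and the h4 brains 9.07, 8.64 and 8.56. All 6 h1 and h2 libraries were above WT and all 3 h4 libraries below it. The 9 mutant libraries averaged 21.2 CPM and the WT libraries 17.3, a difference of 3.90 CPM (2-sided exact permutation test over 220 splits, p = 0.586). The log2 fold change of the mutants against WT was 0.11 (SE 0.15, adjusted p = 0.845). It was 0.62 in h1 (adjusted p = 0.242), 0.70 in h2 (adjusted p = 0.147) and -0.98 in h4 (adjusted p = 0.0309), and the mutants differed from each other (adjusted p = 0.00295). The RNA level says nothing of the protein an allele makes, and the labels do not give the sequence change.

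In the mean of the mutants, 181 genes were called (1.1% of those tested), and 179 of them were shared (1.09%). Of the shared genes, 78 rose (0.473%) and 101 fell (0.612%). The changes were small. The 78 that rose had a median fold of 1.15, with 5 past 2-fold, and the 101 that fell had a median fold of 1.13, with 2 past 2-fold. For 45 of the rises and 39 of the falls, the 9 mutant libraries lay on one side of all 3 WT libraries, a separation seen above WT for 1.05% and below WT for 0.873% of all genes tested (1.92% together). Against the same WT libraries, h1 gave 103 called genes (0.625%; 0.418% higher, 0.206% lower). In h2 there were 112 (0.679%; 0.34% each way) and in h4 751 (4.55%; 1.64% higher and 2.91% lower). Of these, 56, 61 and 125 were shared genes. By number of mutants in which they were called, 15 shared genes passed in all 3, 42 in 2, 113 in 1 and 9 in none. The nearest calls to the threshold were Thbd, with an adjusted p of 0.04696, and Mn1, not called at 0.05179.

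The count rested on few WT brains. It was 18 without WT replicate 1 (10 rises and 8 falls), 37 without WT replicate 2 (23 and 14) and 503 without WT replicate 3 (129 and 374). When the 9 mutant libraries were treated as 1 group, so that differences between genotypes counted as spread, 22 genes were called, 13 higher and 9 lower, all of them among the 179. The balance of rises and falls also moved with the tool: DESeq2 gave 79 rises and 174 falls, and offsets for GC content and length gave 105 and 86.

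**Figure D1:**
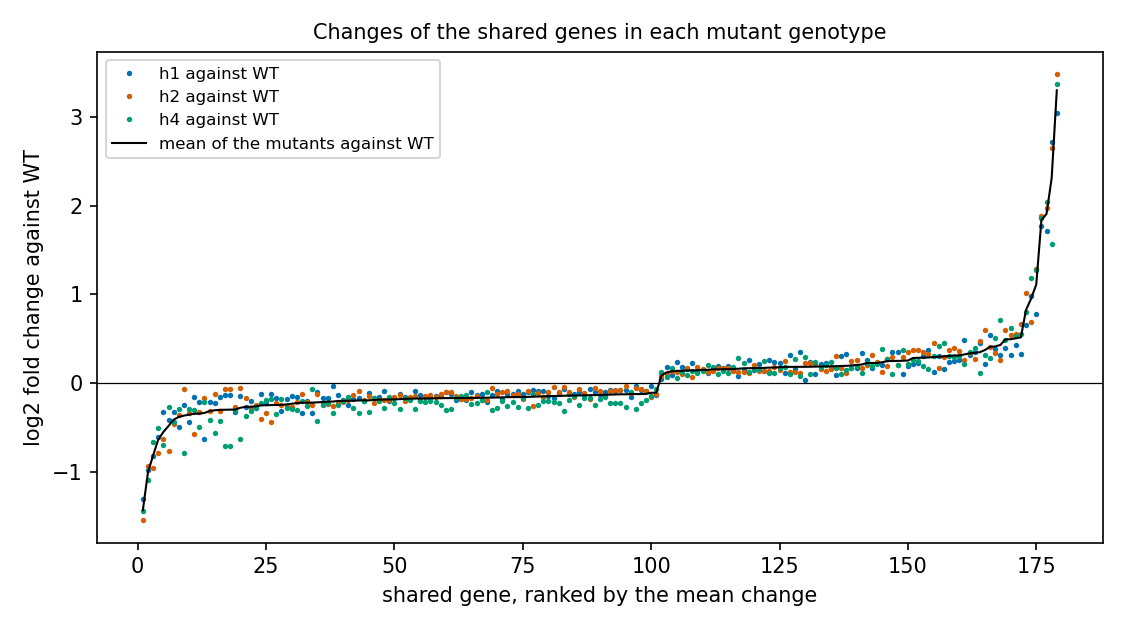
Log2 fold change against WT (vertical axis) of the 179 shared genes in h1, h2 and h4, ranked along the horizontal axis by the mean change of the mutants, which is the black line. The 101 falls lie on the left and the 78 rises on the right, most of them close to 0, and the h4 points lie furthest from 0 in 89 genes.

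Called in each of h1, h2 and h4 against WT were 15 genes (0.0909% of those tested), 10 higher (0.0606%) and 5 lower (0.0303%), and in none of the 15 did a mutant library overlap the WT range. The 15 were chosen by tests against these same WT libraries, so that separation largely follows from the choice. Of all genes tested, 1.92% separated in this way. Several of the 15 are known from the membranes, vessels and fluid around the brain. Ptgds, the lipocalin-type prostaglandin D synthase secreted by leptomeninges and choroid plexus and also made by oligodendrocytes (chromosome 2, 25466709 to 25470046), stood at 549, 624 and 572 CPM in WT. The h1 brains had 808, 763 and 707, the h2 brains 741, 730 and 742, and the h4 brains 795, 842 and 844. The lowest mutant library was thus above the highest WT library, and the rise was 0.41 on the log2 scale (SE 0.04, adjusted p = 7.68e-06).

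Slc6a20a, a proline transporter (chromosome 9, 123634770 to 123678885), was at 22.0, 23.9 and 22.9 CPM in WT. The h1 libraries read 33.3, 28.7 and 30.9, those of h2 33.2, 33.7 and 33.8, and those of h4 31.1, 35.3 and 33.1. Every mutant brain was above every WT brain, with a log2 change of 0.50 (SE 0.05, adjusted p = 7.63e-06). Aebp1, a secreted protein that binds collagen (chromosome 11, 5861947 to 5872088), had 18.3, 18.9 and 17.6 CPM in WT. Its mutant values were 23.1, 21.6 and 23.6 for h1, 28.2, 26.0 and 26.1 for h2, and 29.9, 26.8 and 27.5 for h4. It rose by 0.49 (SE 0.06, adjusted p = 7.68e-06), and its rise differed in size between the mutants (0.32 in h1, 0.55 in h2 and 0.62 in h4, adjusted p of the difference 0.0104). Spp1, the secreted phosphoprotein osteopontin, was at 31.6 to 36.7 CPM in WT and at 39.0 to 46.8 in the mutants, a rise of 0.34 (adjusted p = 0.000785).

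Among the falls, Itih2 and Slc22a2 were the largest. Itih2, a hyaluronan-binding heavy chain of the inter-alpha-trypsin inhibitors (chromosome 2, 10094593 to 10131396), was at 11.9, 14.9 and 13.6 CPM in WT. The h1 brains had 9.19, 9.28 and 7.99, the h2 brains 7.94, 7.60 and 7.81, and the h4 brains 8.91, 8.26 and 11.4, where 1 library came close to the lowest WT value. The change was -0.64 (SE 0.09, adjusted p = 0.000185). Slc22a2, the organic cation transporter OCT2 (chromosome 17, 12584132 to 12628488), was low in all brains, at 1.78, 1.95 and 2.58 CPM in WT and at 0.559 to 1.09 in the mutants. Its change of -1.43 (SE 0.20, adjusted p = 0.000349) was -1.31 in h1, -1.55 in h2 and -1.44 in h4. Slc6a20a, Ptgds, Aebp1 and Itih2 were called in each of 25 alternative analyses, the 12 that left out 1 library included.

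The other genes called in every mutant were of several kinds. Apod, a lipid-binding lipocalin of myelinating cells, was at 180, 190 and 187 CPM in WT and at 201.1 to 234 in the mutants, a rise of 0.23 (adjusted p = 0.00119). Padi2, which turns arginine into citrulline in proteins such as myelin basic protein, was at 49.6 to 51.8 CPM in WT and at 54.7 to 61.4 in the mutants, a rise of 0.23 (adjusted p = 0.00459). Fth1, the ferritin heavy chain, was at 1099 to 1168 CPM in WT and at 1196 to 1346 in the mutants, a rise of 0.18 (adjusted p = 0.00187), and its processed pseudogenes make its estimated counts uncertain. Acss2, which makes acetyl-CoA from acetate, rose by 0.16 (adjusted p = 0.0122).

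On the falling side of the same 15 stood Rims4, a member of the presynaptic RIM family, at 98.2 to 107 CPM in WT and 84.4 to 95.9 in the mutants (-0.22, adjusted p = 0.00149). Sbk1, a brain-enriched serine/threonine kinase, was at 153 to 160 CPM in WT and at 134 to 146 in the mutants (-0.17, adjusted p = 0.0044). Stox2, a winged-helix protein, was at 139 to 150 CPM in WT and at 126 to 133 in the mutants (-0.18, adjusted p = 0.00149). The last pair were low genes with large folds. H2-Q1, a class I MHC gene of the Q region (chromosome 17, 35320405 to 35325099), was at 0.422, 0.186 and 0.595 CPM in WT and at 1.24 to 1.90 in the mutants. It rose by 1.91 (SE 0.26, adjusted p = 0.000253), and as a member of a family of near copies its counts are uncertain. Hoxa7, a homeobox gene of the hindbrain and spinal cord, was at 0.140 to 0.297 CPM in WT and at 0.483 to 1.18 in the mutants, a rise of 1.84 (SE 0.36, adjusted p = 0.00839).

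Leaving out WT replicate 1, 2 or 3 changed the count of 15 to 5, 8 or 63. It became 5 or 7 when h1 replicate 2 or 3 was left out, and 8 or 6 for h2 replicate 1 or 2. It was 5 with Xist as a covariate and 2 in the Xist-high libraries alone. For the mean of the mutants without WT replicate 1, the adjusted p was 0.0566 for Apod, 0.105 for Padi2, 0.069 for Fth1, 0.0657 for Rims4, 0.0859 for Sbk1, 0.0859 for Hoxa7 and 0.154 for Acss2. Without WT replicate 2 it was 0.0566 for Sbk1, 0.121 for Hoxa7 and 0.133 for Acss2. In the Xist-high libraries alone the mean change of Acss2 was no longer called (adjusted p = 0.184), while that of the other 14 was. With Xist as a covariate Sbk1 (0.0594) and Acss2 (0.106) were not.

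**Figure D2:**
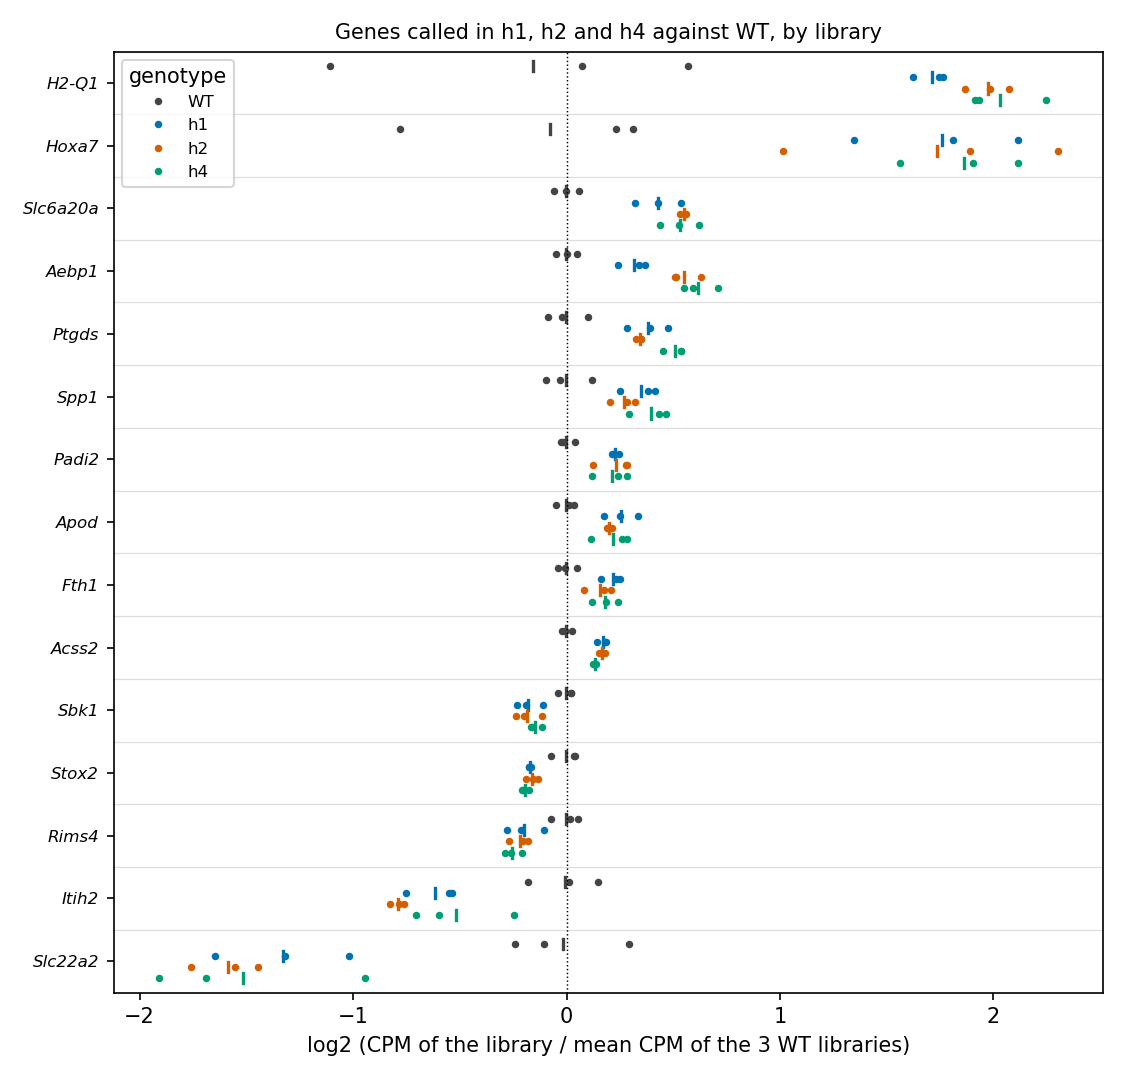
Log2 ratio of each library's CPM to the mean CPM of the 3 WT libraries (horizontal axis) for the 15 genes called in every mutant genotype, with 1 point per library and a short bar at each group mean. In each row the WT points lie apart from all 9 mutant points, and H2-Q1, Hoxa7 and Slc22a2, the genes with few counts, spread most.

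The bases before the start of transcription were searched for the RORβ core, since RORβ is the mutated protein. RefSeq promoter windows (GRCm38.p6, 250 bases upstream of the start) matched 124 of the shared genes and 12 of the 15. The core AGGTCA, on either strand, lay in 14% of all 32851 windows, in 7.1% of the 183 windows of shared genes and in none of the 14 windows of genes called in every mutant. The full ROR response element, which adds the A/T-rich flank and allows either purine at the first base of the core, lay in 0.332% of all windows and in 1 of the 183. A match or its absence describes these letters only. The windows of Aebp1 and Apod, 2 genes that rose in every mutant, are shown because neither holds the core, and 30 bases of the Gfap window because it holds the only full element, in capitals. They lie at chr11:5861616-5861865 on the plus strand, chr16:31314809-31315058 on the minus strand and chr11:102897350-102897379 on the minus strand, and each reads 5′ to 3′ on the gene's strand.
Aebp1: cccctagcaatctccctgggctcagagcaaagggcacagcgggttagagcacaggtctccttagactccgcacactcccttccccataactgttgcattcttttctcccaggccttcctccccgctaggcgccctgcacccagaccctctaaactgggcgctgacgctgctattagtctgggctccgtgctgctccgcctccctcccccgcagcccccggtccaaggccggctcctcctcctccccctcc
Apod: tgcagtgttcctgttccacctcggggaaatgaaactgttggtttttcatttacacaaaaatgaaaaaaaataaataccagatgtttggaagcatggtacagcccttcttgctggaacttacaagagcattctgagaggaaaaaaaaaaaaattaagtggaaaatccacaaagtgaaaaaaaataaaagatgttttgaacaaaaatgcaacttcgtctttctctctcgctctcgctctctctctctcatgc
Gfap: ggccctctctTGACCCATTTAccagaaagg
The Gfap element lies on the opposite strand to the gene and ends 158 bases before its start.

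Of the 29 gene lists, that of oligodendrocytes had the most called members. The lists were chosen with earlier results of these data known, so their counts only describe. Of 20 oligodendrocyte and myelin genes tested, 13 rose, none fell and 7 were not called, against 0.485% of all genes tested that were called higher. All 20 estimates were above 0, with a median of 0.19 against 0.003 over all genes. Mbp, the myelin basic protein that compacts the sheath, was at 3879, 4159 and 4355 CPM in WT. Its mutant values were 5230, 5324 and 5086 for h1, 4471, 4695 and 4807 for h2, and 4381, 4426 and 4638 for h4. The lowest h4 library was just above the highest WT library, and the rise was 0.21 (SE 0.03, adjusted p = 0.00358). Mobp, a cytoplasmic myelin protein, rose by 0.18 (adjusted p = 0.00938), Mog, on the outer face of the sheath, by 0.19 (adjusted p = 0.0129), Mal, a myelin proteolipid, by 0.19 (adjusted p = 0.0157), and Cldn11, the claudin of myelin tight junctions, by 0.18 (adjusted p = 0.0165).

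Hapln2, a link protein of the node of Ranvier, rose by 0.32 (adjusted p = 0.011), from 23.6 to 27.9 CPM in WT to 26.1 to 37.4 in the mutants. Only Apod, Padi2 and Mbp of the 20 genes had no overlap between mutant and WT libraries. Of all genes tested, 1.05% had all 9 mutant libraries above WT. WT replicate 3 had the highest WT value in 16 of the 20 genes, among them Opalin at 30.9 CPM, beside 24.1 and 22.6 in the other WT brains. By genotype the list's median was 0.24 (h1), 0.16 (h2) and 0.11 (h4), with 13, 6 and 3 members called higher. The shares of all genes tested that were called higher were 0.418% for h1, 0.34% for h2 and 1.64% for h4. For 8 of the 20 the mutants differed from each other, Mbp included (adjusted p = 0.00553), against 5.67% of all genes tested.

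The summed CPM of the 20 genes ran from 12000 to 13600 for the WT brains and from 15400 to 15900 for h1. It ran from 13400 to 14400 for h2 and to 14300 for h4, so that h2 and h4 overlapped WT. Of the 12 precursor genes, only Bcas1, made as precursors turn into myelinating cells, rose (0.14, adjusted p = 0.0219, but 0.128 in the Xist-high libraries alone, 0.347 without WT replicate 1 and 0.096 without WT replicate 2). It was also not called without h1 replicate 2 (0.0512) or h4 replicate 3 (0.0557). The number of oligodendrocyte genes called higher was 1 without WT replicate 1, 3 without WT replicate 2, 16 without WT replicate 3, 6 with Xist as a covariate, 6 in the Xist-high libraries alone, 2 with the mutants as 1 group and 0 by limma on log2(TPM + 1). Of the 13 that rose, Mbp, Apod, Padi2, Mobp and Trf were called in both Xist analyses and the rest in neither, with an adjusted p in the Xist-high libraries of 0.0807 for Tmem125, 0.138 for Mag, 0.156 for Gjb1, 0.162 for Mog, 0.165 for Hapln2, 0.297 for Cldn11, 0.365 for Mal and 0.443 for Opalin. Mbp had 0.00404 with the covariate and 0.00955 in the Xist-high libraries. It missed the threshold without WT replicate 2 (0.0664) and with the mutants as 1 group (0.326).

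**Figure D3:**
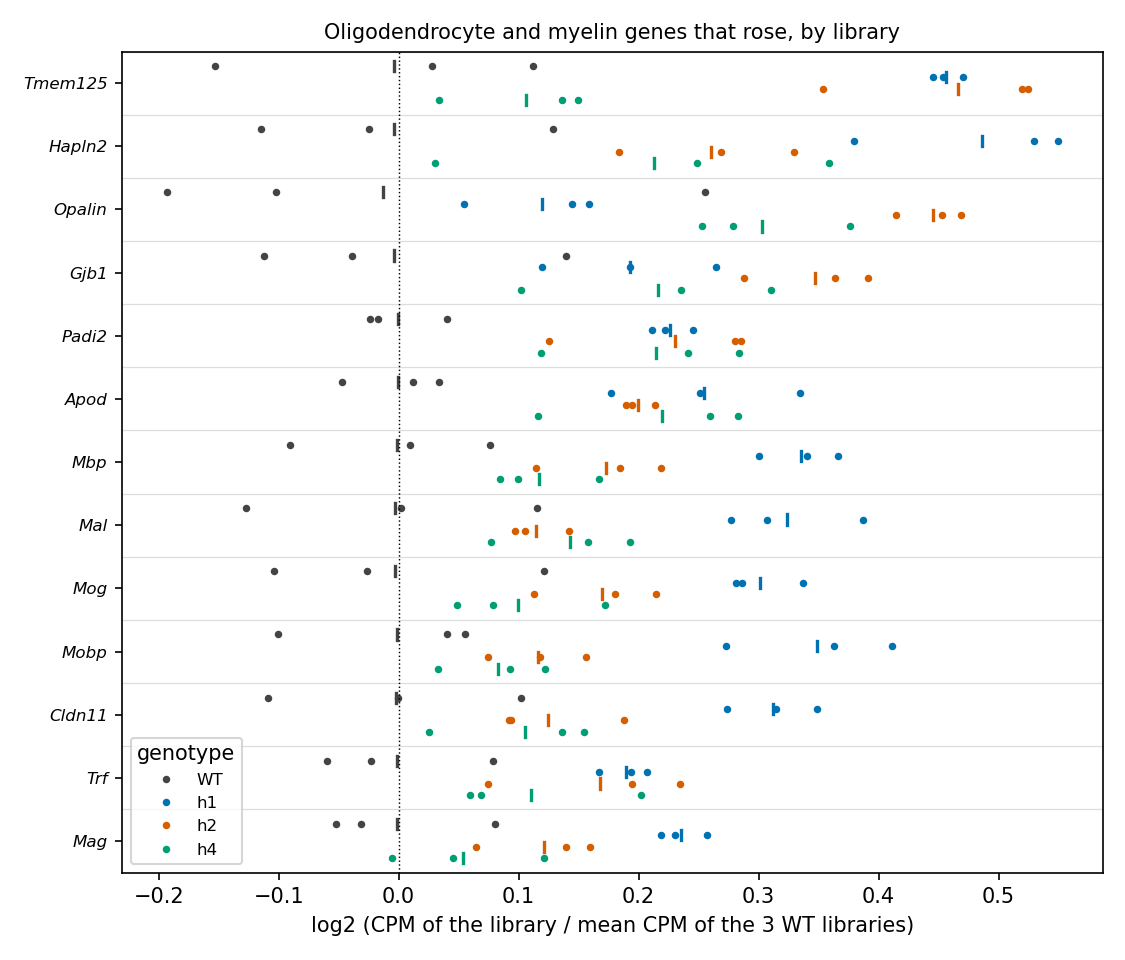
Log2 ratio of each library's CPM to the WT mean (horizontal axis) for the 13 oligodendrocyte and myelin genes that rose, with 1 point per library and a short bar at each group mean. The group means of h1, h2 and h4 lie to the right of WT in every row, but the WT points overlap the mutant points in all rows except Apod, Padi2 and Mbp.

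Fewer genes of other glia were called. Of 12 astrocyte genes, 3 rose and none fell, against 0.485% of all genes tested that were called higher. Gfap, the intermediate filament of reactive and white matter astrocytes, was at 291, 314 and 307 CPM in WT and at 315 to 429 in the mutants, a rise of 0.23 (adjusted p = 0.0329). S100b, a calcium-binding protein of astrocytes and oligodendrocytes, rose by 0.16 (adjusted p = 0.00938) and Aldh1l1, a folate enzyme of astrocytes, by 0.18 (adjusted p = 0.0225), while the list's median was 0.03. Gfap and S100b differed between the mutants, with the highest estimate in h4 for both (0.38 and 0.28). None of 12 microglia genes was called, and their summed level was 424 to 446 CPM in every library. S100b was not called without WT replicate 1 (0.225) or WT replicate 2 (0.144), Aldh1l1 without WT replicate 1 (0.345) or WT replicate 3 (0.0533), and Gfap was called in 6 of the 12 analyses that each left out 1 library. In the Xist-high libraries alone S100b was not called (0.061), and with Xist as a covariate Gfap was not (0.219).

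Genes of the coverings moved in both directions. Over all genes tested, 0.485% were called higher and 0.612% lower. Of 18 meningeal fibroblast genes, 3 rose (Ptgds, Aebp1 and the small proteoglycan Ogn, 0.30) and 1 fell. That was Aldh1a2, which makes retinoic acid in the meninges, at 15.1 to 18.1 CPM in WT and 10.0 to 14.5 in the mutants (-0.38, adjusted p = 0.011). The summed level of the list was 903 to 995 CPM in WT and 1090 to 1270 in the mutants, most of it Ptgds. Of 18 transporters and secreted proteins of the coverings, Slc6a20a and Spp1 rose and Itih2 and Slc22a2 fell, with a list median of -0.006. Of 14 choroid plexus genes, only Kl, the co-receptor Klotho, rose (0.28, adjusted p = 0.0139), while 12 of the 14 estimates were above 0 and the summed level overlapped between mutants (1360 to 1730 CPM) and WT (1290 to 1530 CPM). Whether the amount of covering tissue taken with each brain differed was not tested. Aldh1a2 was not called without WT replicate 2 (0.101) or in the Xist-high libraries alone (0.165), and Kl was not called without WT replicate 2 (0.2). Ogn (adjusted p = 0.0463) was called in 3 of the 12 leave-outs and not in the Xist-high libraries alone (0.397).

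The vessel lists held 1 called gene, against 0.485% of all genes tested called higher and 0.612% called lower. Cd93, an endothelial lectin-like receptor, fell among 16 endothelial genes (-0.34, adjusted p = 0.0295), with its lowest estimate in h1 (-0.63), and none of 12 pericyte and smooth muscle genes was called. Cd93 was not called in the Xist-high libraries alone (0.067) or without any 1 of WT replicate 1, WT replicate 3, h1 replicate 2 and h2 replicate 2. Of 18 retinoic acid genes, Aldh1a1, which makes retinoic acid and lies near Rorb on chromosome 19, rose and Aldh1a2 fell. Aldh1a1 was at 94.8, 107 and 105 CPM in WT and at 110 to 138 in the mutants, with no overlap (0.30, adjusted p = 3.16e-05). Its rise differed in size between the mutants (0.30 in h1, 0.17 in h2 and 0.41 in h4, adjusted p = 0.00272). On chromosome 19 as a whole 8 of 527 genes tested were shared (1.52%), against 1.07% elsewhere, and 3 of 102 within 10 Mb of Rorb.

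Among genes with an established symbol and a mean of at least 1 CPM, several more rises with complete separation were in genes of low level. Fam180a was at 1.34 to 1.73 CPM in WT and 2.39 to 4.67 in the mutants (1.11, adjusted p = 0.000312). Tmprss5, a transmembrane serine protease, was at 1.22 to 1.93 CPM in WT and 2.203 to 3.936 in the mutants (0.82, adjusted p = 0.0136). Msln, a mesothelial surface protein, was at 0.558 to 0.703 CPM and 0.894 to 1.69 (0.95, adjusted p = 0.0445). Accs (0.49), Hoxb8 (0.41), Nmral1 (0.33) and Olfml1 (0.31) followed. Fam180a was called in the Xist-high libraries alone (0.00949), but Tmprss5 (0.0664), Msln (0.386), Accs (0.35), Hoxb8 (0.166), Nmral1 (0.174) and Olfml1 (0.13) were not. Those 6 were also not called without WT replicate 1 or without WT replicate 2, and with 1 library left out Msln kept its call in 3 of 12 cases and Hoxb8 in 2.

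The falls below had complete separation and are those of genes with an established symbol. The predicted gene Gm45351, singled out after its values were seen, had a larger fall (-1.004, adjusted p = 0.00809) from a mean of 2.29 CPM in WT, which was not called in the Xist-high libraries alone (0.144). Robo3, an axon guidance receptor of commissural neurons, was at 14.3 to 18.0 CPM in WT and 11.0 to 13.8 in the mutants (-0.36, adjusted p = 0.00938). Kcng1, a modifier subunit of voltage-gated potassium channels, was at 24.3 to 29.7 CPM in WT and 16.94 to 23.03 in the mutants (-0.35, adjusted p = 0.0096). Pou3f1, a POU transcription factor of cortical projection neurons, was at 13.4 to 14.6 CPM in WT and 9.34 to 13.3 in the mutants (-0.30, adjusted p = 0.0391). Csmd2, a CUB and sushi domain protein of synapses, was at 60.6 to 65.2 CPM in WT and 43.6 to 58.6 in the mutants (-0.30, adjusted p = 0.019), and Elfn2, a synaptic adhesion protein, at 70.9 to 78.0 and 59.3 to 70.2 (-0.23, adjusted p = 0.00296).

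Tmem121b (-0.27), Tmem28 (-0.27), Arhgef33 (-0.26) and the deubiquitinase Otub2 (-0.25) also fell with no overlap. In the Xist-high libraries alone Kcng1, Csmd2, Elfn2 and Tmem121b were called, Csmd2 not being called with Xist as a covariate (0.138), while Robo3 (0.057), Pou3f1 (0.0533), Tmem28 (0.169), Arhgef33 (0.186) and Otub2 (0.149) were not. Leaving out WT replicate 1 ended the calls of Kcng1 (0.276), Csmd2 (0.257), Elfn2 (0.121), Tmem121b (0.0573) and Otub2 (0.345). Leaving out WT replicate 2 ended those of Robo3 (0.2), Kcng1 (0.0553), Csmd2 (0.183) and Otub2 (0.0664). Pou3f1, Tmem28 and Arhgef33 were not called when either of these libraries was left out.

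Families of ion channel and synaptic genes were looked at after their values had been seen, so their counts only describe. Over all genes tested 0.485% were called higher and 0.612% lower, and the median estimate was 0.003. Of 9 voltage-gated calcium channel alpha subunit genes tested, Cacna1a (P/Q-type, -0.20), Cacna1g (T-type, -0.20) and Cacna1i (T-type, -0.22) fell, and 8 of the 9 estimates were below 0. Of 14 postsynaptic scaffold genes, Dlg4, which encodes PSD-95, fell by 0.12 on the log2 scale, Dlgap3 by 0.16 and Dlgap4 by 0.16, and 13 estimates were below 0. Dlg4, Dlgap3 and Dlgap4 were each called in h4 (-0.19, -0.31 and -0.27) but in neither h1 nor h2. Dlgap3 and Dlgap4 differed between the mutants (adjusted p of the F test 0.00828 and 0.0315). Of 6 type IV collagen chains, Col4a1 (-0.20) and Col4a2 (-0.17), the pair that forms the common basement membrane network, fell. Of 23 sterol and acetyl-CoA synthesis genes, Insig1 (0.18), Msmo1 (0.17) and Acss2 rose. With each library left out in turn, Msmo1 kept its call in 4 of 12 analyses, Insig1, Dlgap3 and Cacna1g in 5, Col4a2 in 6, Dlgap4 in 8, Dlg4 in 9, Cacna1a and Col4a1 in 10 and Cacna1i in 12. In both Xist analyses only Cacna1i and Col4a1 of these families were called. The shared genes that fell had longer transcripts than the rest, with a median of 4846 bases against 2263 for those that rose and 2568 for all genes tested, and their median GC content was 55.5% against 52.3% and 50.7%.

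Genes of secretory protein folding had mostly negative estimates. Of 20 endoplasmic reticulum folding genes, 3 fell, none rose, and 18 estimates were below 0 (median -0.12). Over all genes tested 0.612% were called lower, and the median was 0.003. Xbp1, the transcription factor of the unfolded protein response, was at 81.6 to 94.5 CPM in WT and 63.0 to 88.2 in the mutants, which overlap (-0.25, adjusted p = 0.0385). Manf, a secreted folding factor, changed by -0.25 (adjusted p = 0.0303) and Hyou1, a large chaperone, by -0.14 (adjusted p = 0.0463). Xbp1 and Manf differed between the mutants, with the lowest estimate in h2 for both (-0.43 and -0.41). In h2 against WT, 10 of the 20 genes were called lower, against 0.34% of all genes tested. All 3 calls were lost without WT replicate 1 or WT replicate 2, and with Xist as a covariate (adjusted p = 0.124 for Xbp1, 0.0628 for Manf and 0.104 for Hyou1). In the Xist-high libraries alone the estimates were -0.25 for Xbp1, -0.28 for Manf and -0.15 for Hyou1, close to those of all libraries. Manf and Hyou1 were not called there. With each library left out in turn, Xbp1 and Hyou1 kept the call in 4 of 12 analyses and Manf in 9.

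Few genes of the regions and programmes in which Rorb is known were called in the mean of the mutants. In that mean, 0.485% of all genes tested were called higher and 0.612% lower. Of 20 ROR, REV-ERB and clock genes none was called, and Tef, a clock output factor and the member of highest level, had 0.03 (adjusted p = 0.824) and differed between the mutants (0.15, -0.07 and -0.004 for h1, h2 and h4, adjusted p = 0.0048). In all, 8 of these 20 differed between the mutants, against 5.67% of all genes tested, and 3 were called lower in h4. In the mean, none of 16 genes of cortical layer 4 and the upper layers was called, Calb1 standing at -0.04, and none of 15 deep layer genes, Etv1 standing at 0.03. In h4 against WT, 2.91% of all genes tested were called lower. There, 4 of the 16, 2 of the 15 and 2 of 14 striatal genes were, and 1 deep layer gene was called higher. The summed level of the 16 was 1110 to 1130 CPM in WT and 1060 to 1070 in h4. It was 1100 to 1120 for h1 and 1100 to 1140 for h2. In the mean of the mutants only Cacna1g of 14 thalamic genes fell (adjusted p = 0.0367). Of 16 cerebellar genes only Itpr1 did, the inositol trisphosphate receptor of Purkinje cells (-0.17, adjusted p = 0.00938). In the Xist-high libraries alone neither was called (0.0949 and 0.114), nor was either without WT replicate 1 or without WT replicate 2. None of 14 striatal genes (Adcy5 at -0.07), 14 interneuron genes or 10 hypothalamic neuropeptide genes (Pmch at -0.26) was called. Pmch had an adjusted p of 0.66, and of 0.00922 in the Xist-high libraries alone.

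Response programmes had medians of different sign in the mutants, which were not tested as lists. In the mean of the mutants, 0.485% of all genes tested were called higher and 0.612% lower. Of 21 immediate early genes only Ier5 fell (-0.25, adjusted p = 0.00938), while the list's median went from -0.32 for h1 over 0.000 for h2 to 0.51 for h4, and that of the mean of the mutants was 0.11. Of 12 glucocorticoid responsive genes none was called, and their medians were 0.47 for h1, -0.39 for h2 and 0.06 for h4. None of 14 heat shock genes was called (Hspa8 at -0.04), and none of 20 interferon and MHC class I genes (B2m at -0.002). The class I gene H2-Q1, which is not on that list, was called higher in every mutant (1.91 in the mean). Of 13 mitochondrially encoded genes mt-Atp6 alone rose (0.08, adjusted p = 0.0367), a call that was lost in the Xist-high libraries alone (0.395) and in 10 of the 12 leave-outs, and whose estimate was -0.018 with offsets for GC content and length. Ier5 was called in the Xist-high libraries alone (0.0154) and not without WT replicate 1 (0.268) or WT replicate 2 (0.064).

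Of 17 Hox genes of the hindbrain and spinal cord tested, Hoxa7 and Hoxb8 rose and 13 estimates were above 0. Their median was 0.10, against 0.003 over all genes tested, of which 0.485% were called higher. Hoxb9, not on the list and singled out after its values were seen, also rose with no overlap, from a mean of 0.0954 CPM in WT to 0.217 to 0.984 in the mutants (2.31, SE 0.51, adjusted p = 0.02). It was called in 10 of the 12 leave-outs, the exceptions being WT replicate 1 (0.128) and WT replicate 2 (0.2), and in neither Xist analysis (0.0973 with the covariate, 0.139 in the Xist-high libraries). The summed level of the list was 23.9 to 25.2 CPM for the WT brains. It was 28.1 to 28.9 for h1, 27.3 to 30.8 for h2 and 23.7 to 29.7 for h4, which overlaps WT. How far down the brainstem each brain was taken is not in the labels, and its part in the Hox result was not tested. None of 8 blood cell genes was called, at 252 to 570 CPM summed in WT and 177 to 446 in the mutants, and none of 5 muscle genes (Acta1 at -0.09). None of 9 sex-linked genes was called in this comparison, Xist having an estimate of -1.27 (adjusted p = 0.86). That cannot show equal levels, because each mutant genotype mixed Xist-high and Xist-low libraries, which makes the spread within it large. All 3 WT libraries were Xist-high.

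**Figure D4:**
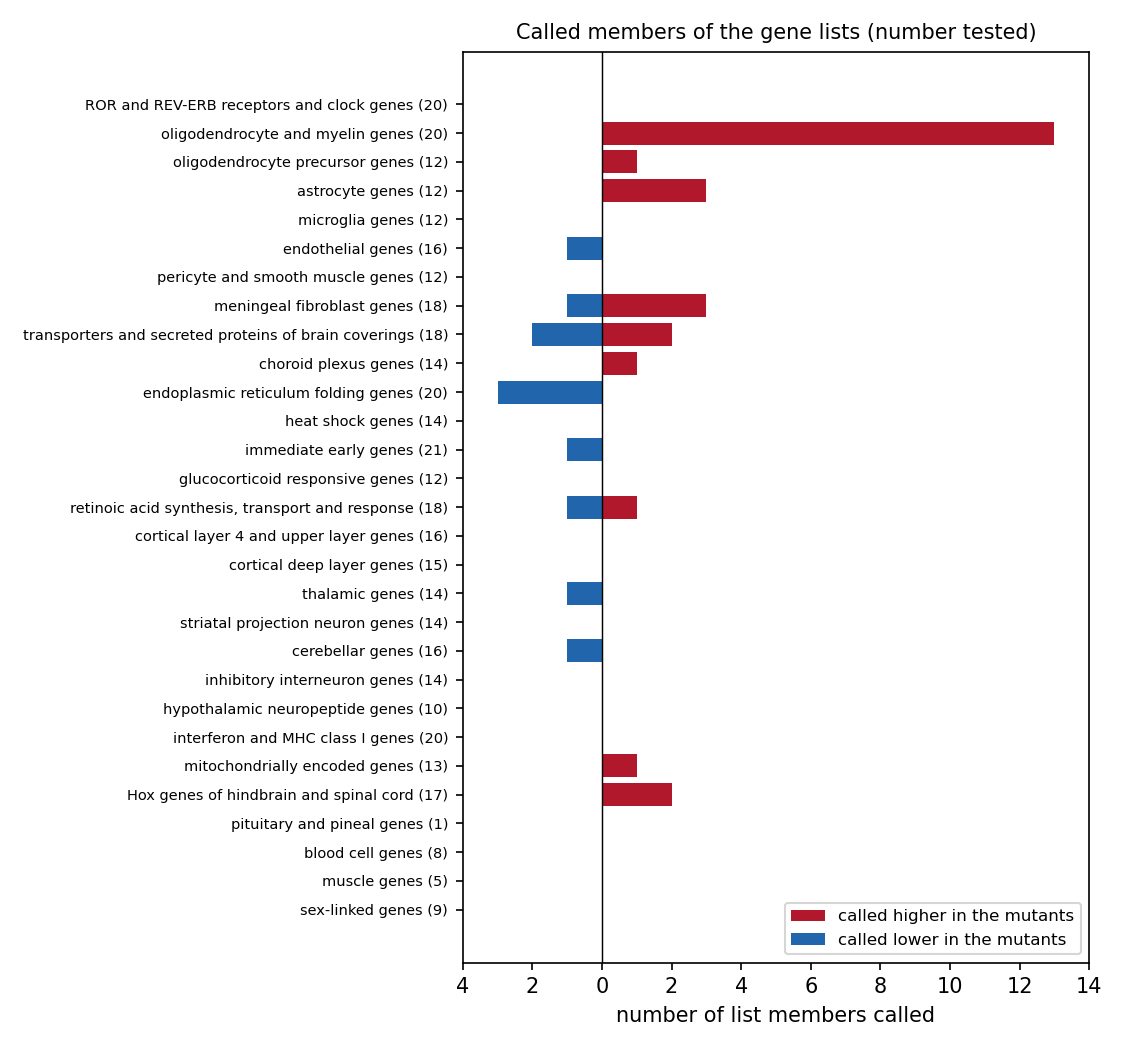
Number of members of each gene list called higher (right) or lower (left) in the mean of the mutants against WT, with the number tested in brackets. Oligodendrocyte and myelin genes have the longest bar, 13 of 20, and 15 of the 29 lists have no bar.

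Among the shared genes, 21 of the 78 rises (26.9%) and 35 of the 101 falls (34.7%) differed between the mutants, against 5.67% of all genes tested. Shared genes were chosen with the same mutant libraries and the same estimates of spread, so these shares only describe. A strong change in 1 genotype can also bring a gene among them, and 125 of the 179 were called in h4. The falls had a median of -0.15 for h1, -0.16 for h2 and -0.24 for h4, and the rises one of 0.23, 0.22 and 0.21. Cacna1i, for example, was at 93.1 to 101 CPM in WT and 69.9 to 92.4 in the mutants, and its estimates were -0.10 in h1, -0.12 in h2 and -0.42 in h4 (adjusted p of the difference 2.93e-05). Scube1, a secreted and cell surface EGF-repeat protein, had -0.23, -0.13 and -0.57 (9.37e-05). Adar, an RNA-editing enzyme, had -0.07, -0.04 and -0.32 (2.38e-05). Arrb1, a beta-arrestin, had -0.03, -0.05 and -0.29 (0.00018), and Atp2b2, a calcium pump of the plasma membrane, -0.08, -0.03 and -0.28 (0.000402).

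Averaging h1 and h2 without h4 left none of these 5 called. In the Xist-high libraries alone Cacna1i and Scube1 were called (0.0394 and 0.0102), and Adar (0.174), Arrb1 (0.292) and Atp2b2 (0.309) were not. The last 3 were also not called without WT replicate 1 or without WT replicate 2. A pair of genes called in the mean of the mutants was not shared. Pisd-ps2, a pseudogene, had estimates of -0.14, -0.09 and 1.40 for h1, h2 and h4, and Dbi, a ligand of acyl-CoA and of benzodiazepine sites, had 0.02, -0.007 and 0.35, so that the largest estimate of each was in h4.

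**Figure D5:**
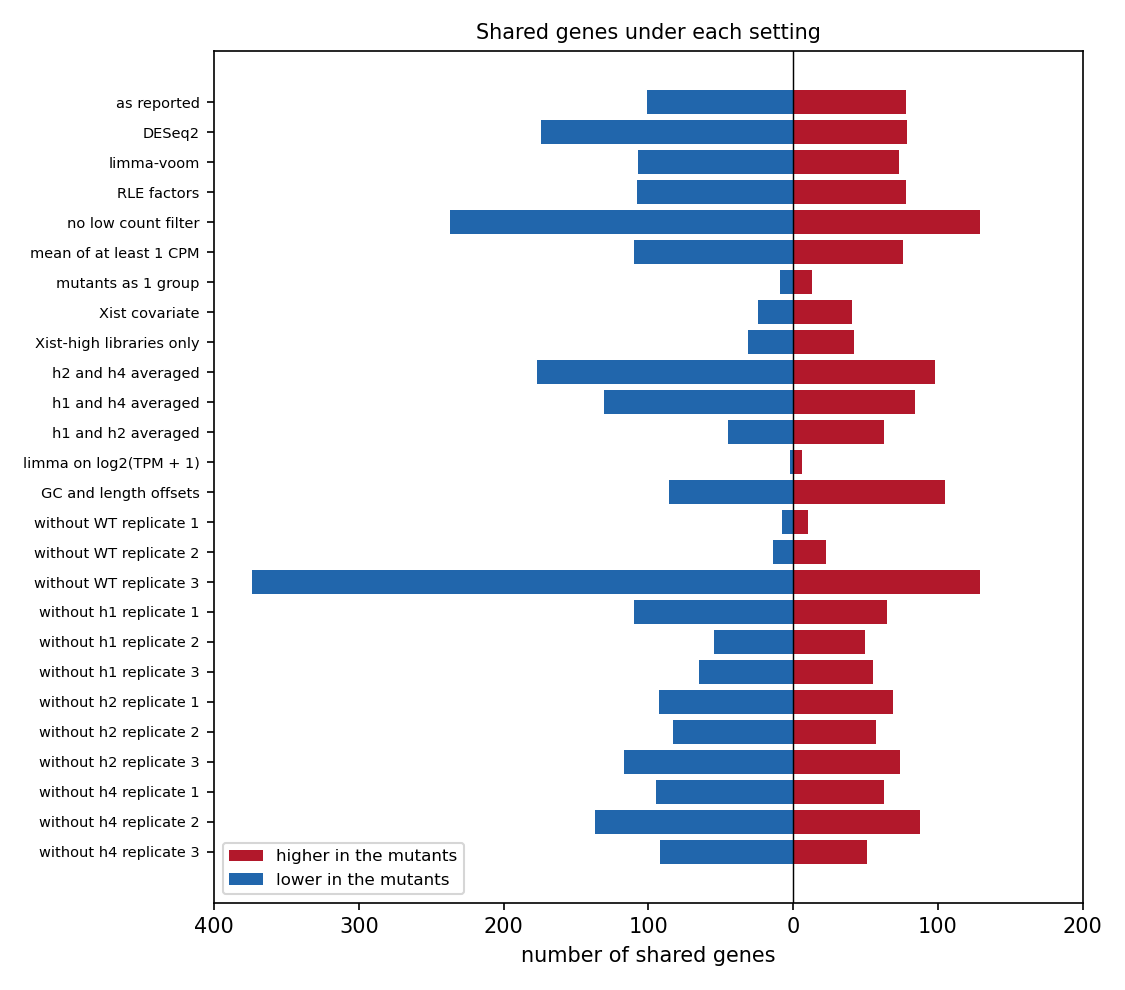
Number of shared genes higher (right) and lower (left) in the mutants in the analysis reported and in each of 25 alternatives, among them leaving out each library in turn. The bars shrink most with the TPM values, with the mutants as 1 group and without WT replicate 1 or 2, and are longest without WT replicate 3.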

How the data were processed

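Polyadenylated RNA of 12 whole brains, 3 mice per genotype, was read as 100 bp paired ends, per the labels' protocols. Bowtie2 2.2.0 and RSEM 1.2.12 were used, per the submitters' processing notes, and for the genome build the sources used here give no name. The authors deposited RSEM tables of 38924 genes per library with expected counts (read pairs per gene, those matching several genes being divided), TPM (scaled to transcript length and to each library's total) and FPKM, which was not used. Transcript lengths in the text are those deposited by the authors. Identifiers of 37607 genes were found in GENCODE M21 (GRCm38), which gave symbols and positions.

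Expected counts were rounded and tested with edgeR 4.0.16 in R 4.3.3: low-count filter (22431 genes removed), TMM factors (0.991 to 1.012), 1 mean per genotype, quasi-likelihood with robust dispersions (common biological coefficient of variation 0.0531), and Benjamini-Hochberg adjustment over 16493 genes. A 2-degree F test gave differences between mutants. P-values measure the spread between mice. The method was tested on simulated data. Tests of DESeq2 1.42.0, limma 3.58.1 (voom, and log2(TPM + 1)), other filters and factors, Xist, the choice of genotypes and each library left out served as alternatives.

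Some genes that the naming rule takes are not reported here. The comparison, the members and the 29 gene lists (426 genes, 398 tested) were chosen with earlier results of these data known, and 4 further families after the values had been seen. Genes named are Rorb, genes called in every mutant, the 12 largest rises and falls among shared genes of at least 1 CPM with complete separation, the 6 called genes differing most clearly between mutants, and up to 3 called members per list or else the member of highest level. Other oligodendrocyte genes, Ogn, Pisd-ps2, Thbd, Mn1, Gm45351, Hoxb9 and the 4 families were named after their values were seen.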

Additional observations from a re-analysis of the deposited data

Results flagged for a closer look

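The following genes, among the 69 named by rule, differed between the 3 mutant genotypes in edgeR's F test. Its contrast leaves out the WT mean, but the WT libraries enter the TMM factors and the estimate of spread. Rorb had an adjusted p of 0.00295 (log2 fold change against WT of 0.62 in h1, 0.70 in h2 and -0.98 in h4). Furthest from WT in h4 were Dbi (3.55e-07), Adar (2.38e-05), Cacna1i (2.93e-05), Scube1 (9.37e-05), Arrb1 (0.00018), Atp2b2 (0.000402), Aldh1a1 (0.00272), S100b (0.00494), Aebp1 (0.0104), Gfap (0.0372), Adcy5 (0.0334) and B2m (0.0398). Adcy5, an adenylyl cyclase of striatal neurons, had -0.02, -0.01 and -0.19, and B2m, the light chain of class I MHC, -0.08, -0.02 and 0.09, neither being called in the mean. Furthest from WT in h1 were Mbp (0.00553), Tef (0.0048), Cd93 (0.00772) and Mt1 (0.0369), a metallothionein with 0.49 in h1, 0.03 in h2 and 0.13 in h4. Furthest in h2 were Xbp1 (0.0277) and Manf (0.0482). Sex composition differed between the groups and its part in these differences was not tested gene by gene.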

How the results depend on the processing

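No paired analysis was possible because the replicate numbers used here only follow the order of the samples within a genotype, and the labels give none that links a WT mouse to a mutant. In the order mutants against WT, shared, called in every mutant, list members called and named genes called, the counts were 181, 179, 15, 37 and 53 as reported. They were 255, 253, 12, 44 and 44 with DESeq2, and 373, 366, 40, 57 and 52 with no low-count filter. With the mutants as 1 group they were 22, 22, no value, 9 and 16. With Xist as a covariate they were 65, 65, 5, 19 and 26, and in the 7 Xist-high libraries alone 76, 73, 2, 23 and 28, where h1 and h2 keep 1 library each, assumed to vary like the others. Averaging h2 and h4 gave 285, 275, 45, 39 and 49, h1 and h4 218, 215, 21, 32 and 42, and h1 and h2 108, 108, 25, 33 and 35. Limma on log2(TPM + 1) gave 8, 8, 0, 6 and 8. Limma-voom, RLE factors and a minimum of 1 CPM kept each of the 5 within 1.5 times, as did offsets for GC content and length, chosen after seeing the data (194, 191, 13, 38 and 44). With those offsets mt-Atp6 turned to -0.018 (adjusted p = 0.894), the only change of sign among the named genes that had been called. The cause of these changes was not tested.

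The single comparisons, reported as 103 genes in h1, 112 in h2, 751 in h4 and 935 differing between mutants, gave 236, 288, 990 and 1368 with no filter, 30, 69, 616 and 718 with Xist as a covariate, 16, 39, 606 and 192 in the Xist-high libraries alone, and 0, 11, 152 and 127 on log2(TPM + 1). Leaving out each library in turn gave 18 to 505 genes in the mutants against WT, 18 to 503 shared, 5 to 63 called in every mutant, 10 to 55 list members, 16 to 51 named genes, 22 to 166 in h1, 18 to 348 in h2, 230 to 1111 in h4 and 420 to 1033 differing. The Rorb difference stayed between 2.36 and 5.47 CPM. Of the 179, 12 genes (7 rises and 5 falls) were called in all 12 leave-outs. Few counts limit Hoxa7, H2-Q1 and Slc22a2.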
